A study of Mus musculus with 8 samples.

Results

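Polycomb group proteins were followed here through the mRNA of 10 of their genes, Ezh2, Eed, Suz12, Jarid2, Mtf2, Rnf2, Phc1, Cbx7, Bmi1 and Kdm2b, after ablation of nucleostemin (NS) in mouse ESCs. The genes were chosen by name as subunit genes, with earlier results of these data known, and every probe set annotated to them was taken. They are 10 of the 18194 genes that the arrays measure with an unambiguous symbol, and 31 of 45101 probe sets.

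The cells were NS tet-off ESCs, male ES cells of the 129sv background in which both copies of the NS gene (Gnl3) are disrupted. NS is supplied by a cDNA in the ROSA26 locus that doxycycline (Dox) switches off, so the untreated controls also lack the endogenous gene. There were 4 backgrounds. The control cells carried an empty vector and grew in medium with LIF and serum, the 2i cells carried the same vector and grew with inhibitors of MEK and GSK3b (2i), and the remaining cells overexpressed Nanog or Esrrb. The control is marked empty vector in the plots, and values in a row follow the order control, 2i, Nanog, Esrrb unless another is named. Total RNA of each background was hybridized from Dox-untreated cells and from cells treated with Dox for 6 days, 1 array per condition, which gave 8 arrays and 4 pairs. The vectors were stably integrated under puromycin selection into 1 parental line, so the backgrounds are not independent lines. A pair with an active form of Stat3 was left out and is not analysed here.

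Polycomb proteins keep developmental genes silent through 2 kinds of complex. In PRC2, Ezh2 methylates histone H3 on the lysine whose trimethylation marks Polycomb-repressed genes, with Eed and Suz12 as obligatory partners and Jarid2 or Mtf2 as alternative accessory subunits. In PRC1, Rnf2 (Ring1B) ubiquitinates histone H2A together with a Pcgf partner such as Bmi1, while Phc1 and Cbx7 belong to the canonical form and Kdm2b recruits a variant form to unmethylated CpG islands. In ESCs these complexes cover the promoters of lineage regulators such as the Hox and Gata genes.

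The promoters of 5 members are shown because these were the members whose response to Dox differed most between backgrounds, as described further on. Each line gives the 250 bases before the first listed RefSeq start (GRCm38.p6), 5′ to 3′ on the gene's own strand, with CCAAT boxes (CCAAT) and GC boxes (GGGCGG) on either strand in capitals. The windows are chr6:47595031-47595280 (minus strand) for Ezh2, chr7:89980977-89981226 (minus strand) for Eed, chr13:44730524-44730773 (plus strand) for Jarid2, chr6:122340228-122340477 (minus strand) for Phc1 and chr2:18676768-18677017 (plus strand) for Bmi1.
Ezh2: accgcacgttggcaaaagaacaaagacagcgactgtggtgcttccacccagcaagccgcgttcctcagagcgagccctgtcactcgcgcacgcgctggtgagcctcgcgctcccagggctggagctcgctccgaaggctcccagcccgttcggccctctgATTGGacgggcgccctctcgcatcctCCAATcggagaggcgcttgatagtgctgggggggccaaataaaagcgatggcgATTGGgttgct
Eed: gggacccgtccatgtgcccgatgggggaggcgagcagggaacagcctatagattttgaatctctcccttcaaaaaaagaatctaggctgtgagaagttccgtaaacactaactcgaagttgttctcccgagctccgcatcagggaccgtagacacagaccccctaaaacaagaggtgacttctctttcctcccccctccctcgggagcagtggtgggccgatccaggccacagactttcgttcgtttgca
Jarid2: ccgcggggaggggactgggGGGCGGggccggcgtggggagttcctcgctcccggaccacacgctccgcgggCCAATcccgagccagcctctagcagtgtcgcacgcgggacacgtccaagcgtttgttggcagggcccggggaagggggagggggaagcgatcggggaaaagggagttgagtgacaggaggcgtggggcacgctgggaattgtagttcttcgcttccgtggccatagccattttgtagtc
Phc1: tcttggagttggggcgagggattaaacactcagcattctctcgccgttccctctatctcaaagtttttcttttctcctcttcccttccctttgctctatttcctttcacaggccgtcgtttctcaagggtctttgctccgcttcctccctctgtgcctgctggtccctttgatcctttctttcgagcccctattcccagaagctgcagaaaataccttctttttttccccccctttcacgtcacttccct
Bmi1: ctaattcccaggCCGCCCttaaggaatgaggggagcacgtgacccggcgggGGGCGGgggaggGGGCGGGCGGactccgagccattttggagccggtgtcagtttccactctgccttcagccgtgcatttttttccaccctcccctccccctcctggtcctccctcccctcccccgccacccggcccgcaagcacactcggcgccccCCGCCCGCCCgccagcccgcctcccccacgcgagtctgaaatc
The Ezh2 window held 3 CCAAT boxes and 0 GC boxes. That of Jarid2, which has a further listed start not shown, held 1 CCAAT box and 1 GC box, and that of Bmi1 held 0 CCAAT boxes and 6 GC boxes, some of which overlap. The windows of Eed and Phc1 held neither. Over the first listed starts of all 10 members, 4 windows held a CCAAT box (Cbx7, Ezh2, Jarid2 and Suz12) and 7 a GC box, while 33.8% and 32.7% of 32851 RefSeq windows of this length did. The letters TTTNNCGC, a form of the E2f site, were in 1 member window (Suz12) and in 4.28% of all windows. The E box CACGTG was in 1 (Bmi1) and in 6.02%, and AAGGTCA, which Esrrb binds, was in 0 of the member windows and in 4.08% of all. All 3 motifs were searched on both strands. CpG dinucleotides numbered 23 in the Ezh2 window, 12 in that of Eed, 23 in that of Jarid2, 8 in that of Phc1 and 21 in that of Bmi1, and the median over all windows was 6. A match of letters is a description of the sequence and does not show that a factor binds.

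Gnl3 checked the Dox labels. Its log2 signal was 13.47 to 13.68 on the Dox-untreated and 7.79 to 9.13 on the Dox-treated arrays. Dusp6, a gene induced by MEK and Erk signalling, checked the 2i labels. Without Dox it read 10.97 in control and 10.95 in 2i cells, and with Dox it read 7.64 in 2i cells. The array labelled 2i Dox-untreated therefore did not show the low Dusp6 of the array labelled 2i Dox-treated, and in the 2i pair an effect of Dox and one of the inhibitors cannot be told apart. Values of that pair are given by the labels, and the members' values against the untreated control array are given below. The probe sets of Nanog and Esrrb did not check the forced expression, since their signals on the Dox-untreated Nanog and Esrrb arrays were 12.35 and 11.27, against 12.81 and 11.31 in control cells, and whether these probes match the transgenes was not tested. All 18 ESC markers had a mean signal above the median of all probe sets, which is 5.35.

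Values are log2 signals as the authors normalized them, which allow a probe set to be compared across arrays but not with another probe set. A gene is read from the brightest of its probe sets (by the mean of the 8 arrays), and all 10 members lay above the median of all probe sets in this reading, as did 26 of their 31 probe sets. A log2 ratio is the value with Dox minus that without Dox in a pair, and has no replicate. Tests were therefore made only across pairs, with limma over all 45101 probe sets and Benjamini-Hochberg adjustment at 0.05. The first takes the 4 backgrounds as replicates of 1 response to Dox (the common response). The second asks whether that response differed between cells with forced Nanog or Esrrb and cells without (control and 2i), here called the difference between backgrounds and given as forced minus other. Their p-values measure the spread between backgrounds of 1 line.

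No member passed either test. In the common Dox response 0 of 10 members were called, where 7.35% of all genes were, and 3 of 10 had an unadjusted p under 0.05, all of them lower (Ezh2, Eed and Jarid2), where 14.4% of all genes did in that direction. For the difference between backgrounds 0 of 10 were called, where 0.462% of all genes were. Here 4 members (Ezh2, Eed, Jarid2 and Phc1) had a higher response with forced Nanog or Esrrb at an unadjusted p under 0.05 and 1 (Bmi1) a lower one, each direction holding 8.29% of all genes. When the control pair was left out, limma called 6 members in this comparison (Ezh2, Eed, Jarid2, Phc1, Cbx7 and Bmi1), where 11.6% of all genes were, and when the 2i pair was left out it called 3 (Ezh2, Jarid2 and Phc1), where 11.9% were. It called 0 without the Nanog or without the Esrrb pair. In such fits only 1 side of the comparison holds a pair of backgrounds, so its spread comes from that side alone. No member was over 2-fold in any pair. Of all genes, 5.36%, 4.81%, 1.13% and 1.06% were over 2-fold higher and 3.85%, 3.1%, 1.17% and 0.967% over 2-fold lower. Over 1.5-fold lower were Ezh2 in the control pair, where 10.4% of all genes were, and Ezh2, Jarid2 and Phc1 in the 2i pair, where 9.11% were.

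**Figure D1:**
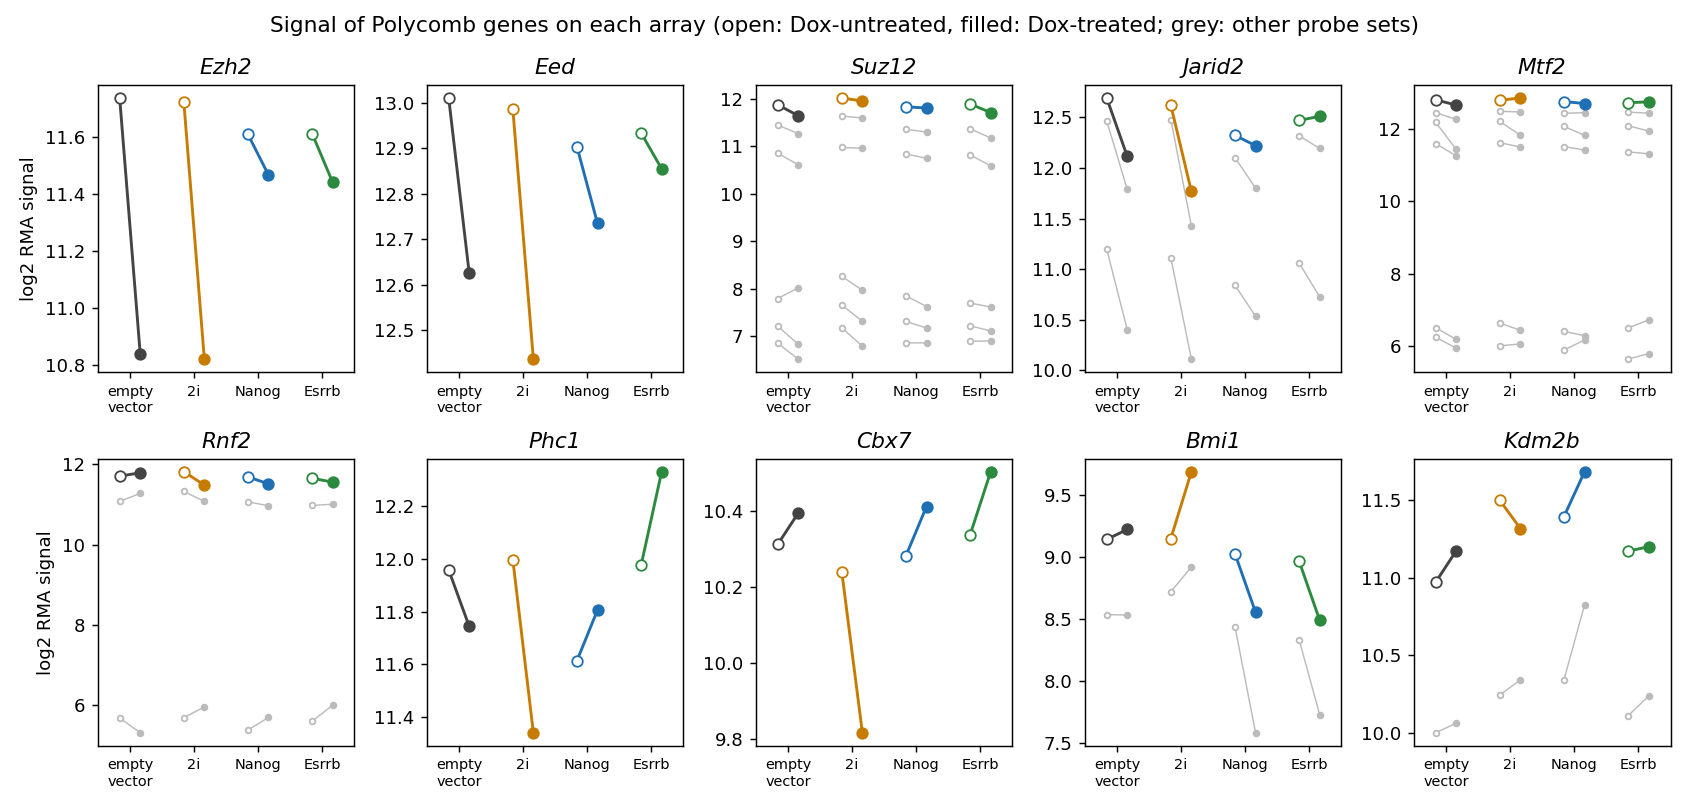
Log2 RMA signal (vertical axis, a scale of its own in each panel) of the 10 Polycomb genes on the 8 arrays, where open points are untreated and filled points treated cells, joined within a pair and coloured by background. Grey lines are further probe sets with a mean above the median of all probe sets. Treated control and 2i cells stand at 10.84 and 10.82 for Ezh2, and the other 6 arrays at 11.44 or above.

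Ezh2, the methyltransferase of PRC2, had the largest log2 ratio of the 10 members in control cells, and also in 2i cells by the brightest probe sets. With the probe sets of a gene averaged, Jarid2 had the larger ratio of these in 2i cells, -0.97. The log2 signal of Ezh2 was 11.74, 11.72, 11.61 and 11.61 without Dox and 10.84, 10.82, 11.47 and 11.44 with Dox. All 4 Dox-treated arrays lay below all 4 Dox-untreated ones, and treated control and 2i cells lay lowest by a wide gap. The log2 ratios were -0.90, -0.90, -0.14 and -0.17, which left 53.7%, 53.5%, 90.6% and 88.8% of the untreated signal. The response common to the pairs was -0.53 (SE 0.16, limma adjusted p = 0.0997), with an unadjusted p of 0.0128, and it was -0.40 without the 2i pair (limma adjusted p = 0.238). With forced Nanog or Esrrb the response was higher by 0.74 (95% interval 0.483 to 1.004, limma adjusted p = 0.0617), and also by 0.74 when the 2i pair was left out. Ezh2 has 1 probe set, so no second one bears on these values.

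Eed, the subunit that binds the trimethylated mark and stimulates Ezh2, had smaller ratios in the same pairs. Its log2 signal was 13.01, 12.99, 12.90 and 12.93 without Dox and 12.62, 12.44, 12.73 and 12.85 with Dox. Both sets of 4 arrays were separate, with the 2i array lowest and the Esrrb array nearest to its untreated partner. The log2 ratios were -0.39, -0.55, -0.17 and -0.08, the common response was -0.30 (SE 0.08, limma adjusted p = 0.0911), and the difference between backgrounds was 0.34 (95% interval 0.10 to 0.59, limma adjusted p = 0.210), or 0.26 without the 2i pair. A further Eed probe set was dim, with a mean of 3.60, and had ratios from -0.53 to -0.08. By the brightest probe sets, Ezh2 and Eed were the members with all Dox-treated arrays below all untreated ones, 2 of 10. Of all genes, 8.96% were so placed. Among the further probe sets, 1450710_at of Jarid2 and 1418515_at of Mtf2 were also so placed.

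Suz12, which holds PRC2 together, showed little difference in its brightest probe set. Its signals were 11.88, 12.02, 11.83 and 11.89 without Dox and 11.65, 11.96, 11.81 and 11.71 with Dox, and the 2 groups overlapped, since the Dox-treated 2i array lay above 3 of the untreated arrays. The log2 ratios were -0.23, -0.06, -0.03 and -0.18. The common response was -0.13 (95% interval -0.28 to 0.03, limma adjusted p = 0.286), and the interval of the difference between backgrounds ran from -0.24 to 0.33. The 6 probe sets of Suz12 gave ratios from -0.38 to 0.23 in the control pair and from -0.38 to -0.02 in the 2i pair. Of these, 1420022_s_at had -0.33, -0.38, -0.002 and 0.01, and 1449661_at had -0.38, -0.34, -0.14 and -0.11. The brighter 1427253_s_at and 1452364_at had -0.04 and -0.02 in the 2i pair, and 1420020_at had 0.23 in the control pair. By the brightest probe sets, Suz12, Ezh2 and Eed were lower in all 4 pairs, 3 of 10 members, where 19.1% of all genes were. Probe sets 1420020_at and 1420022_s_at of Suz12 were not lower in all of them. Further probe sets of Jarid2 (1422697_s_at and 1450710_at) and Mtf2 (1418515_at and 1449115_at) were.

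Jarid2, an accessory subunit that helps to bring PRC2 to its targets, resembled Ezh2 in which arrays were low. Its log2 signal without Dox was 12.69, 12.62, 12.32 and 12.47, and with Dox it was 12.11, 11.77, 12.22 and 12.51. Treated control and 2i cells were the lowest of the 8, while the Nanog and Esrrb arrays with Dox lay closer to their partners. Its log2 ratios were -0.58, -0.85, -0.10 and 0.04, with 67.0% and 55.4% of the signal left in control and 2i cells. The difference between backgrounds was 0.68 (95% interval 0.38 to 0.99, limma adjusted p = 0.0934), or 0.55 without the 2i pair. Part of it lay in the untreated arrays, since Jarid2 was lower by 0.37 in untreated Nanog cells than in untreated control cells. Among the other Jarid2 probe sets, 1422697_s_at had ratios of -0.68, -1.05, -0.30 and -0.13, and 1450710_at had -0.79, -0.999, -0.30 and -0.34 with a common response at a limma adjusted p of 0.0501. The first of these was the 1 member probe set of 31 over 2-fold lower in the 2i pair, where 2.73% of all probe sets were. The common response in the probe set that represents the gene had a limma adjusted p of 0.187.

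Mtf2, which anchors another form of PRC2 at CpG-rich DNA, gave different values in different probe sets. The brightest one had signals of 12.80, 12.78, 12.75 and 12.72 without Dox and 12.65, 12.85, 12.69 and 12.74 with Dox, with ratios between -0.15 and 0.06 and overlapping groups. Probe set 1418515_at had ratios of -0.75, -0.38, -0.25 and -0.15 and a common response at a limma adjusted p of 0.0810. For the brightest one the interval of the common response ran from -0.16 to 0.10 and that of the difference between backgrounds from -0.23 to 0.28. Which part of the Mtf2 transcript each probe set reads was not examined here.

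**Figure D2:**
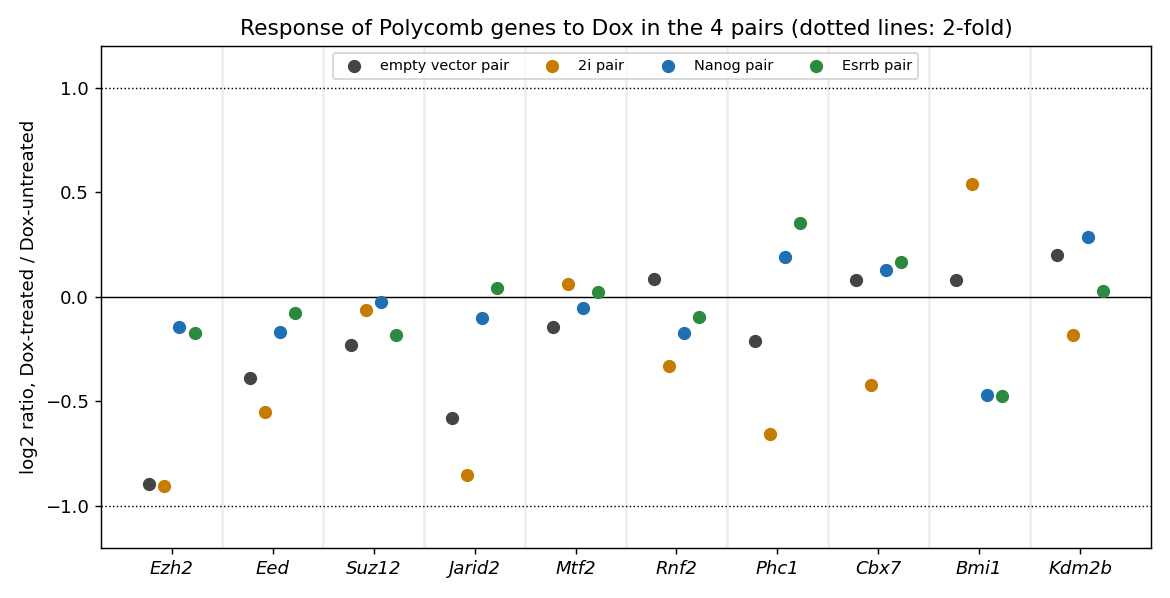
Log2 ratio of the signal with Dox over that without (vertical axis) of the 10 Polycomb genes in the 4 pairs, 1 point each. The dotted lines mark 2-fold. Ezh2 and Jarid2 lie lowest in control and 2i cells, while with forced Nanog or Esrrb Phc1 lies above 0 and Bmi1 below it.

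The PRC1 genes had no common direction. Rnf2, the ubiquitin ligase of both canonical and variant PRC1, had signals of 11.71, 11.82, 11.69 and 11.66 without Dox and 11.79, 11.49, 11.51 and 11.56 with Dox. Its ratios were 0.08, -0.33, -0.18 and -0.10, and the treated control array lay among the untreated ones. The interval of the common response ran from -0.32 to 0.06 and that of the difference between backgrounds from -0.39 to 0.36. The probe sets of Rnf2 gave ratios from -0.37 to 0.42 in the control pair, and 3 of 5 lay above the median signal of all probe sets.

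Phc1, a canonical PRC1 subunit whose polymerizing domain compacts chromatin, had ratios of opposite sign between the backgrounds. The values were 11.96, 11.997, 11.61 and 11.98 without Dox and 11.74, 11.34, 11.81 and 12.33 with Dox. The 2i array with Dox was the lowest of all 8 and the Esrrb array with Dox the highest. The log2 ratios were -0.21, -0.66, 0.19 and 0.35, and the difference between backgrounds was 0.71 (95% interval 0.31 to 1.11, limma adjusted p = 0.143), or 0.49 without the 2i pair. Untreated Nanog cells stood at -0.34 from untreated control cells, and with Dox these 2 backgrounds differed by 0.06. The common response was -0.08 (limma adjusted p = 0.806), and Phc1 has 1 probe set.

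Cbx7, the chromodomain protein through which canonical PRC1 of ESCs reads the PRC2 mark, had signals of 10.31, 10.24, 10.28 and 10.34 without Dox and 10.39, 9.82, 10.41 and 10.50 with Dox. It was lower with Dox on the 2i array alone, where 74.7% of the signal was left, and its highest values were those of the Nanog and Esrrb arrays with Dox. Ratios were 0.08, -0.42, 0.13 and 0.17. Neither the common response (interval -0.29 to 0.27) nor the difference between backgrounds (0.32, limma adjusted p = 0.550) passed. That difference was 0.0650 without the 2i pair (limma adjusted p = 0.907) and 0.57 without the control pair (limma adjusted p = 0.0265). Cbx7 was the 1 member with the Nanog and Esrrb arrays with Dox above the other 6, where 4.79% of all genes were. The other 2 probe sets of Cbx7 were dim.

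Bmi1, the Pcgf subunit best known for repressing the Cdkn2a locus, had the opposite pattern to Ezh2 in its brightest probe set. Its signal was 9.14, 9.15, 9.02 and 8.96 without Dox and 9.22, 9.69, 8.55 and 8.49 with Dox. The Nanog and Esrrb arrays with Dox were the lowest of the 8, and treated control and 2i cells the highest. The ratios were 0.08, 0.54, -0.47 and -0.47, which left 72.1% and 72.0% of the signal with forced Nanog and Esrrb and gave 145% of it in 2i cells. The difference between backgrounds was -0.78 (95% interval -1.26 to -0.31, limma adjusted p = 0.168), or -0.55 without the 2i pair. The second Bmi1 probe set, 1448733_at, read 8.44 and 8.33 without Dox and 7.58 and 7.73 with Dox on the Nanog and Esrrb arrays, with ratios of 0.00, 0.20, -0.86 and -0.60 and a difference between backgrounds at a limma adjusted p of 0.136. Bmi1 was the 1 member with both the Nanog and Esrrb arrays with Dox below the other 6, where 4.48% of all genes were, and the 1 member whose treated control and 2i arrays both lay above the other 6, where 11.3% were. In Ezh2, Eed and Jarid2, 3 of 10 members, these arrays both lay below the other 6, where 12.7% of all genes did so. All these placements are by the brightest probe sets. In 1448733_at of Bmi1 the treated control array, at 8.53, lay below the untreated 2i array, at 8.72.

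Kdm2b, the CpG island binding subunit of a variant PRC1, differed among untreated cells, in its brightest probe set, by more than it did within any pair. Its signal was 10.97, 11.50, 11.39 and 11.17 without Dox and 11.17, 11.32, 11.68 and 11.20 with Dox, so that the untreated 2i array exceeded the untreated control array by 0.52. In this probe set all of the ratios, 0.20, -0.18, 0.29 and 0.03, were smaller than that spread. The common response was 0.08 (95% interval -0.14 to 0.30) and the difference between backgrounds 0.15 (-0.26 to 0.55). A further probe set of Kdm2b had ratios of 0.06, 0.10, 0.48 and 0.13, and there the treated Nanog array was the highest, with 10.82.

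**Figure D3:**
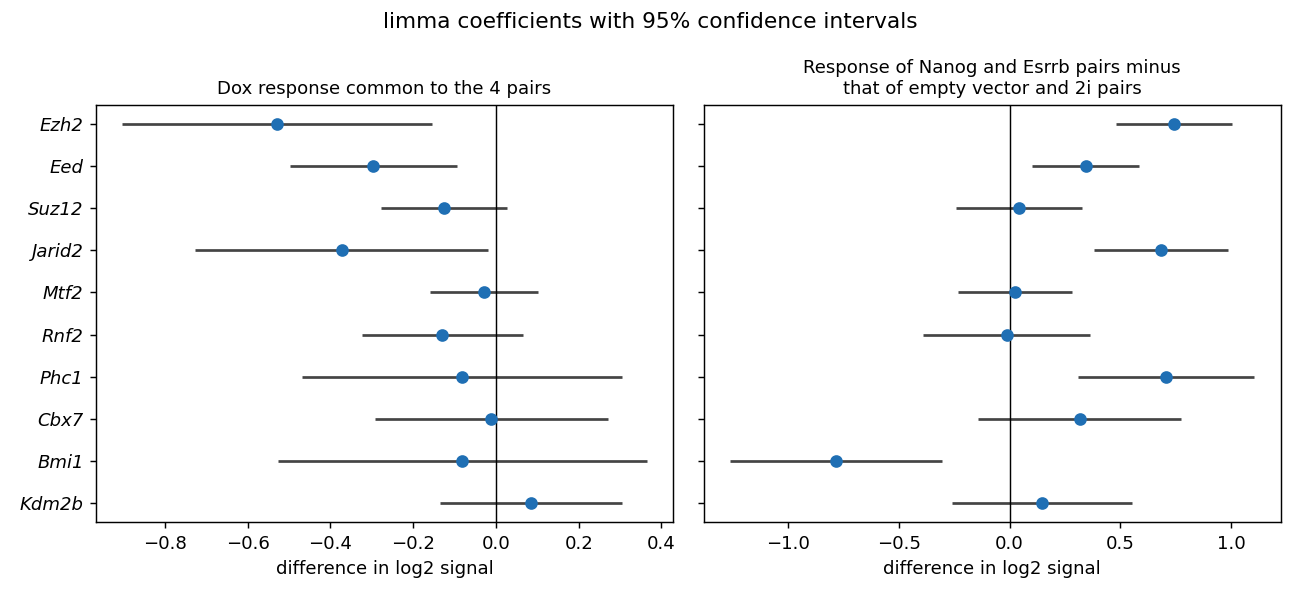
limma coefficients (points) with 95% confidence intervals (lines) on the log2 scale for the 10 Polycomb genes, with the common response on the left and the difference between backgrounds on the right. In the right panel Ezh2, Eed, Jarid2 and Phc1 lie above 0 and Bmi1 below it, and none passed after adjustment over all probe sets.

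The untreated arrays give a measure of how far backgrounds differed before Dox. Over the 4 untreated arrays the range was 0.13 for Ezh2, 0.11 for Eed, 0.08 for Mtf2, 0.10 for Cbx7, 0.16 for Rnf2, 0.18 for Bmi1, 0.19 for Suz12, 0.37 for Jarid2, 0.38 for Phc1 and 0.52 for Kdm2b. With Dox, Nanog cells exceeded control cells in Ezh2 by 0.63 and Esrrb cells by 0.60, several times that range. Over all genes these differences had standard deviations of 0.55 and 0.57 with Dox, against 0.27 and 0.36 without. For Bmi1 the same differences were -0.67 and -0.73. For Phc1 they were 0.06 and 0.59, and for Jarid2 0.11 and 0.40. Treated Nanog cells lay within the untreated range of Phc1 and below that of Jarid2, by its 12.22 against 12.32 to 12.69. Treated 2i and control cells differed by -0.02 in Ezh2, -0.19 in Eed and -0.35 in Jarid2. Set against the untreated control array, the ratios of treated 2i cells were -0.92 for Ezh2, -0.57 for Eed, -0.92 for Jarid2, -0.62 for Phc1, -0.49 for Cbx7, -0.22 for Rnf2 and 0.55 for Bmi1, near those of the labelled pair. Those of Suz12 and Kdm2b became 0.08 and 0.34 and so changed sign.

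As a group, the members had median log2 ratios of -0.18, -0.38, -0.08 and -0.03, where all genes had -0.03, 0.03, -0.01 and 0.00. Of the 10, 6, 8, 7 and 5 were lower with Dox in these pairs, where 54.2%, 46.4%, 52% and 49.5% of all genes were. Expression was measured in bulk RNA, so fewer cells that express a gene and less RNA per cell cannot be told apart.

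Other genes of the same complexes were read for 37 genes of a list. In the common Dox response 2 of the 37 passed, where 7.35% of all genes did. Both were lower. Pcgf6, the Pcgf subunit of the variant complex with Mga, fell by 0.49 (SE 0.08, limma adjusted p = 0.031, lower in 4 of 4 pairs). Bcor, a partner of Kdm2b, fell by 0.56 (SE 0.12, limma adjusted p = 0.049, lower in 4 of 4 pairs). The log2 ratios of Pcgf6 were -0.71, -0.39, -0.43 and -0.41, and those of Bcor were -0.29, -0.52, -0.82 and -0.63. Leaving out any 1 pair, the 2i pair included, ended both calls, with limma adjusted p from 0.0749 to 0.0987 for Pcgf6 and from 0.0890 to 0.156 for Bcor. In the comparison of backgrounds limma called 0 of the 37, and 4 had an unadjusted p under 0.05, where 3017 of 18194 genes did. The medians of the 37 genes were -0.01, 0.01, -0.03 and -0.04.

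Among the paralogs of the members, Ezh1, the other PRC2 methyltransferase, had ratios of 0.00, -0.28, -0.26 and 0.00, against -0.90 for Ezh2 in the first pair. Of the Mtf2 paralogs, Phf1 had 0.43, 0.01, 0.10 and 0.12 and Phf19 between -0.01 and 0.09. Ring1, the paralog of Rnf2, had -0.25, -0.03, -0.08 and 0.16. Beside Bmi1, the Pcgf genes included Pcgf3 with the largest ratio of all, 1.77, 1.05, 0.39 and 0.43. In control cells its log2 signal was 9.25 without and 11.02 with Dox. Pcgf5 had 0.77, 0.63, 0.02 and 0.19, while Pcgf1 had -0.02, -0.03, -0.35 and 0.00 and Pcgf2 had 0.13, -0.20, -0.02 and -0.01. None of these passed, with limma adjusted p values for the common response of 0.069 for Pcgf3 and 0.158 for Pcgf5.

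The polyhomeotic gene Phc2 stood higher in all pairs, with 1.51, 0.73, 0.52 and 0.44 (limma adjusted p = 0.058 for the common response), unlike Phc1, and Phc3 had -0.55, -0.29, 0.14 and -0.13. Among the chromodomain genes Cbx8 had 0.84, 1.205, 0.09 and -0.37, and its signal was low, with 5.06 on the untreated control array. Cbx2 had -0.29, -0.37, -0.17 and -0.27 and Cbx6 had -0.01, -0.46, -0.39 and -0.13. Kdm2a, the paralog of Kdm2b, lay between -0.14 and 0.08 in all pairs. Mga, the DNA-binding subunit of the Pcgf6 complex, was the 1 gene of these 37 over 2-fold lower, with -1.27 in control cells and -0.72, -0.35 and -0.42 elsewhere. In the control pair 3.85% of all genes were over 2-fold lower. Over 2-fold higher were Pcgf3 and Phc2 in control and Pcgf3 and Cbx8 in 2i cells. These are 2 of 37 in each pair, where 5.36% and 4.81% of all genes were over 2-fold higher. Of the remaining PRC2 genes, Epop, which limits PRC2 activity in ESCs, had -0.79, -0.42, -0.09 and -0.40, Ezhip, an inhibitor of the complex, had 0.73, 0.65, -0.36 and 0.43, and Lcor had -0.44, -0.22, 0.05 and -0.09.

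**Figure D4:**
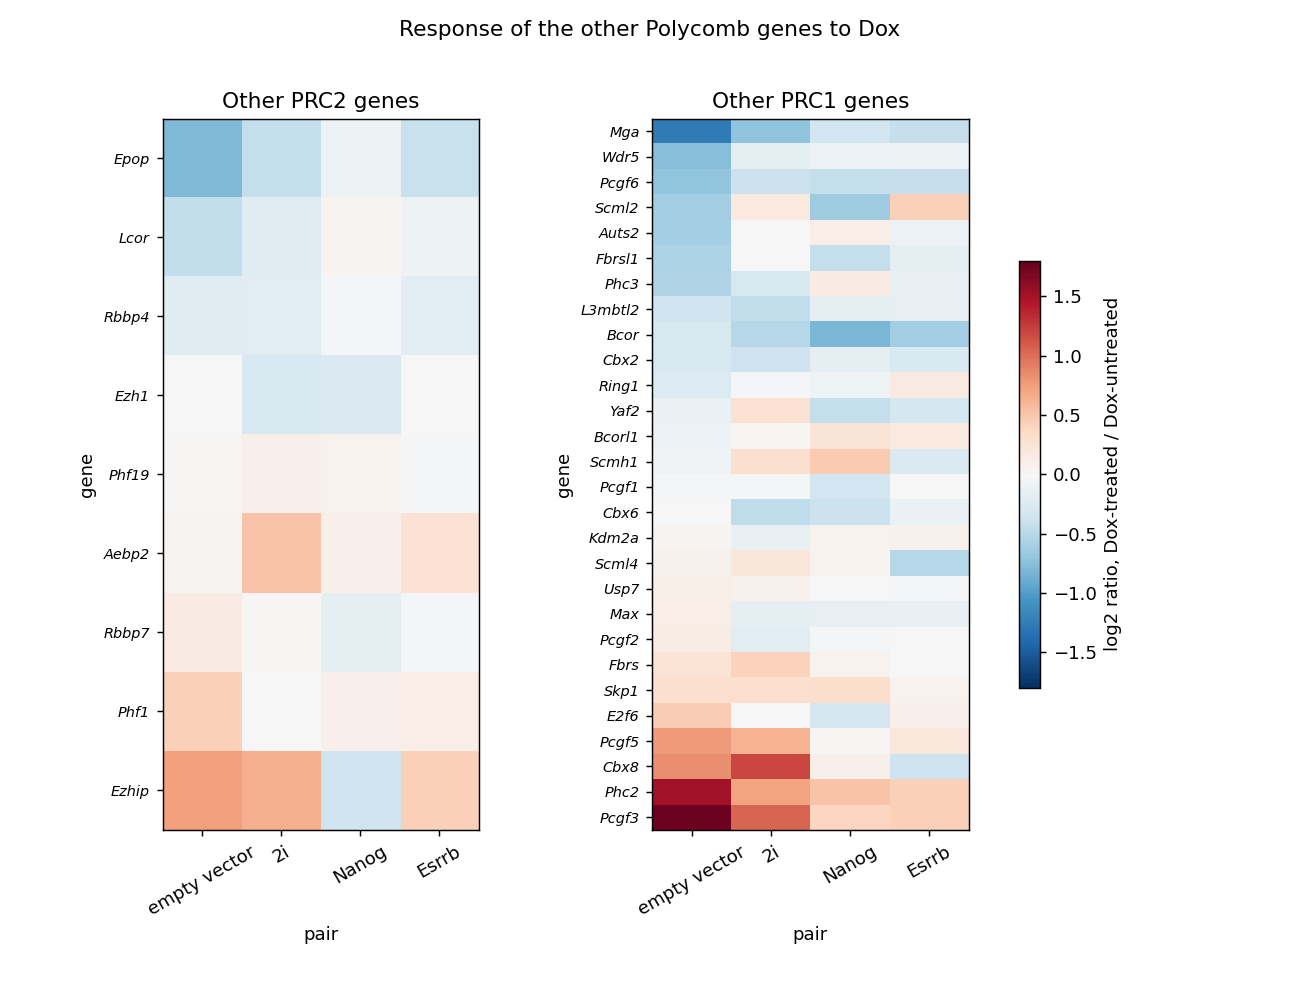
Log2 ratio of the signal with Dox over that without (colour, blue lower and red higher with Dox) of 9 further PRC2 genes and 28 further PRC1 genes (rows) in the 4 pairs (columns), ordered by the control. Pcgf3 and Phc2 have its highest ratios, 1.77 and 1.51, and Mga the lowest, -1.27.

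Enzymes and partners that remove the Polycomb marks were read for 12 of 12 listed genes. In the common response 2 of the 12 passed, where 7.35% of all genes did. They went in opposite directions. Foxk2, a partner of the H2A deubiquitinase Bap1, fell by 0.62 (limma adjusted p = 0.033, lower in 4 of 4 pairs). The deubiquitinase Usp21 rose by 0.59 (limma adjusted p = 0.039, higher in 4 of 4 pairs). Kdm6b, a demethylase of the PRC2 mark, had ratios of 0.53, 0.78, 0.32 and 0.34 (limma adjusted p = 0.051). Asxl1, the cofactor of Bap1, had -1.003, -0.82, -0.28 and -0.29 (limma adjusted p = 0.061). In the comparison of backgrounds limma called 0 of 12, and 1 had an unadjusted p under 0.05, where 3017 of 18194 genes did. The medians of the 12 genes were -0.01, -0.08, 0.16 and -0.04.

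Known targets of Polycomb in ESCs, mostly Hox genes and other lineage regulators, were read for 52 of 57 listed genes. Their medians were 0.09, 0.31, -0.04 and -0.04. Over 2-fold higher were 11, 10, 2 and 2 of them, where 5.36%, 4.81%, 1.13% and 1.06% of all genes were. Over 2-fold lower were 1, 2, 0 and 2, where 3.85%, 3.1%, 1.17% and 0.967% of all genes were. In the common response 1 of the 52 passed, where 7.35% of all genes did. This was the cell cycle inhibitor Cdkn2b, which rose by 2.52 (limma adjusted p = 0.024, higher in 4 of 4 pairs) with ratios of 3.77, 3.11, 1.46 and 1.77. In the comparison of backgrounds 3 of the 52 passed, where 0.462% of all genes did. All 3 had a lower response under forced Nanog or Esrrb: Gata3 by -2.07 (limma adjusted p = 0.049), Gata6 by -2.05 (0.047) and Tbx4 by -3.02 (0.045). These calls were lost under some other settings, as given further on. Their ratios were 1.95, 2.23, 0.25 and -0.21 for Gata3, 1.42, 1.5, -0.59 and -0.58 for Gata6, and 3.73, 4.004, 1.12 and 0.58 for Tbx4. Gata6 stood at 8.39 on the untreated Esrrb array against 4.89 in control cells. Only 20 of the 52 genes had a mean signal above the median of all probe sets, and ratios of dim probe sets are compressed.

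Markers of other cells and of proliferation differed between the same pairs as Ezh2, Eed and Jarid2, and their part in the values of these members was not tested. Of 14 trophoblast and simple epithelium markers, 13, 14, 8 and 5 were higher with Dox, where 8312, 9740, 8733 and 9170 of all 18194 genes were. The 14 markers had median ratios of 1.27, 1.10, 0.16 and -0.02. Their median log2 signal was 5.62 to 6.02 on the untreated arrays and 6.96, 7.02, 5.69 and 6.01 on the treated ones. Over 2-fold higher were 9, 7, 0 and 0 of the 14, where 5.36%, 4.81%, 1.13% and 1.06% of all genes were. Within this list Elf5 and Tpbpa, named after their values were seen, had signals of at most 3.47 on all 8 arrays. Krt19 reached 11.39 in treated control cells. Of this list only Gata3, 1 of the 14, passed a test, the comparison of backgrounds given above, where 0.462% of all genes did. Of 18 G1 to S phase genes that E2f factors drive, 17, 18, 10 and 16 were lower with Dox. Of all genes, 54.2%, 46.4%, 52% and 49.5% were. The 18 genes had medians of -0.61, -0.62, -0.02 and -0.19. Mcm5 and Tyms, 2 of the 18, passed in the common response, where 7.35% of all genes did. They were lower by 0.31 and 0.70 (limma adjusted p = 0.039 and 0.034). In the comparison of backgrounds limma called 0 of 18, and 11 had an unadjusted p under 0.05, where 3017 of 18194 genes did. The Tyms probe set was dim, with 5.14 in untreated control cells.

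ESC markers had medians of -0.62, -0.12, -0.04 and 0.10. In the common response 2 of the 18 passed, where 7.35% of all genes did. These were Nr0b1 and Sall4, which fell by 1.56 and 0.40 (limma adjusted p = 0.039 and 0.042). In the comparison of backgrounds 1 of the 18 passed, where 0.462% of all genes did. This was Nr0b1, whose response was higher under forced Nanog or Esrrb by 1.49 (limma adjusted p = 0.0495). The 11 endoderm markers had a median log2 signal of 7.65 and 6.17 on the Esrrb arrays without and with Dox and 4.90 to 5.49 on the other 6. Their median ratios were -0.10, 0.31, -0.15 and -0.69. Gata6, 1 of the 11, passed the comparison of backgrounds, where 0.462% of all genes did, and no other passed a test. The medians were -0.21, 0.10, 0.09 and 0.05 for 7 mesoderm markers, -0.15, 0.20, 0.03 and -0.04 for 7 neurectoderm markers and 0.06, 0.30, 0.14 and 0.06 for 8 fibroblast markers, and no gene of these 3 lists passed either test. With any 1 pair left out, none of the 9 listed genes named as called in the common response passed (limma adjusted p from 0.0549 to 0.156), at the same sign. Of these, Cdkn2b passed under all 9 settings that kept every pair, and each of the others was lost under 1 or 2 of them. Mcm5 did not pass with eBayes without a trend, and Tyms did not with probe sets averaged or without the block and was not tested after the filter on dim probe sets. The 4 listed genes called in the comparison of backgrounds also passed without the control and without the 2i pair, and did not without the Nanog or the Esrrb pair. All 4 calls (Gata3, Gata6, Tbx4 and Nr0b1) were lost with probe sets averaged, with 1 probe set for each gene and with eBayes without a trend. With the filter on dim probe sets Gata6, Tbx4 and Nr0b1 did not pass and Gata3 was removed.

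**Figure D5:**
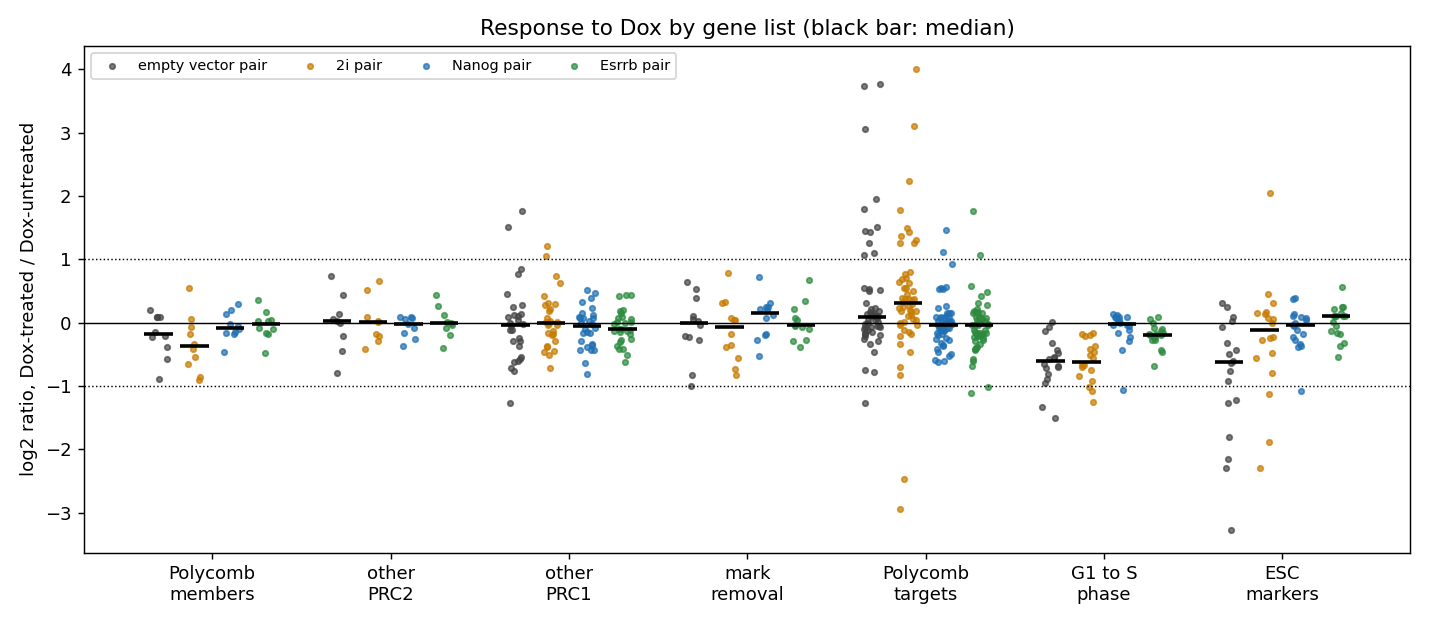
Log2 ratio of the signal with Dox over that without (vertical axis) of each gene (points) of the Polycomb members and 6 other gene lists in the 4 pairs (colours), with black bars for the medians and dotted lines at 2-fold. The members' medians run from -0.38 (2i) to -0.03 (Esrrb), and those of the G1 to S phase genes from -0.62 to -0.02.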

How the data were processed

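Expression was measured on Affymetrix GeneChip mouse arrays, 1 for each of 8 conditions. The authors made the deposited log2 values with RMA (affy in R, versions not given in the sources used here), which corrects for background and whose quantile step hides a shift of all genes together. No further normalization was done. The base of the logarithm, which no source gives, was taken as 2 because values run from 1.82 to 14.6. Of 45101 probe sets, 34958 have 1 symbol in the platform annotation, 932 several and 9211 none here.

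limma 3.58.1 in R 4.3.3 (lmFit, eBayes with trend) was fitted over all probe sets with the background as a block, with 3 residual degrees of freedom for the common Dox response and 2 for the difference between backgrounds, and was tested on simulated data. The number of arrays limits the precision. Each background gave its own pair of arrays, which is why it is the block. The alternatives were other probe set choices, a filter on dim probe sets, other scalings and limma settings, other fold thresholds and leaving out each pair, and, chosen after seeing the data, another reference array for the 2i pair.

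The members and the 11 gene lists were chosen with earlier results of these data known. Genes named are all members, their paralogs, the label checks and, of each list, up to 4 genes with the largest ratio in the empty vector (control) pair and those called. Elf5 and Tpbpa were named after their values were seen. Promoter sequences are from RefSeq (GRCm38.p6) and matched all 10 members by symbol. Tables were handled with Python 3.11.15 and pandas 2.3.3.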

Additional observations from a re-analysis of the deposited data

Results flagged for a closer look

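The log2 ratio of Cbx7 in the 2i pair, -0.42, stood apart from its other ratios of 0.08, 0.13 and 0.17. Its gap to the nearest of them was 0.858 of the whole range, above Dixon's 95% critical value for 4 values. Chance marks about 1 in 20 groups in this way, and the 10 members were all examined.

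Phc1 and Bmi1 had ratios of opposite sign in the 2 kinds of background. For Phc1 the response under forced Nanog or Esrrb exceeded that of control and 2i cells by 0.71, with the ratios of the former above 0 and those of the latter below it (limma adjusted p = 0.143). For Bmi1 the difference was -0.78, with the signs the other way round (limma adjusted p = 0.168). Neither gene passed the test of the difference. The ratio of Bmi1 in the control pair was 0.08 in the brightest probe set and -0.00378 in 1448733_at.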

How the results depend on the processing

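Limits come first from the design: 1 array per condition, backgrounds of 1 line standing in for replicates, and a 2i pair whose untreated array did not show low Dusp6. In the common Dox response limma called 0 members under every setting run, also without the replicate block, where it called 2167 probe sets against 2712 with it. Over all probe sets that number was 3592 with the filter on dim ones and 3 to 272 with 1 pair left out, in fits of 6 arrays. In the comparison of backgrounds it was 112, against 0 with that filter, 1 with eBayes without a trend, 1 of 18194 genes when the probe sets of a gene were averaged, 15 with 1 probe set for each gene, 160 with centred arrays and 248 with robust eBayes. With the control or the 2i pair left out it was 4050 and 3708, and 0 without either of the others. Members called there were 0 except with a pair left out, when they numbered 0 to 6. At 1.5-fold instead of 2-fold, 1 member passed in the control pair (Ezh2) and 3 in the 2i pair (Ezh2, Jarid2 and Phc1), where 10.4% and 9.11% of all genes were lower by that much. Of 250 coefficients of members and settings, 225 kept direction and side of the threshold, 9 newly passed and 16 changed sign, none of these called in the main setting. With the probe sets of a gene averaged, the common response of Rnf2 was 0.0269 and that of Cbx7 0.0153, and the difference between backgrounds of Rnf2 was 0.0517. Without _x_at and _s_at probe sets the difference of Suz12 was -0.0337. With 1 pair left out, the common response ran from -0.0594 to 0.0107 for Mtf2, -0.226 to 0.111 for Phc1, -0.0701 to 0.126 for Cbx7 and -0.288 to 0.0496 for Bmi1, and the difference from -0.0409 to 0.126 for Suz12, -0.0793 to 0.131 for Mtf2, -0.221 to 0.195 for Rnf2 and -0.0426 to 0.339 for Kdm2b. The cause was not tested. Of 210 ratios, 200 moved by less than the spread between pairs and 10 by more, among them that of Mtf2 in the control pair, -0.34 when its probe sets were averaged.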
